A study of Mus musculus with 9 samples.

Results

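The 46 genes described here belong to the interferon response and to the STING pathway, which senses DNA in the cytosol. They were taken by name from a list of interferon-stimulated and nucleic-acid-sensing genes, and all 46 were found among the 21870 genes of the deposited mRNA table. The list was chosen with earlier results of these data known. The samples are livers of wild-type (WT) C57 BL6 mice, 8 weeks old and about 20 g in weight. Control mice received saline. APAP mice received 500 mg/kg of acetaminophen (APAP), a painkiller that injures the liver in overdose, by intraperitoneal injection. The dmPGE2+APAP mice were injected with 300 μg/kg of dmPGE2, a stable analogue of prostaglandin E2, 1 h before the same dose of APAP, and livers were taken 6 h after APAP. Each group has 3 libraries, dmPGE2 was not given without APAP, and the whole liver was used, with no cell type sorted. The labels do not say that each library is a separate animal, so the p-values below measure the spread among these libraries. The column name of the control libraries is not explained in the labels, and it was taken as Control by elimination.

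Cells sense foreign or misplaced nucleic acid with cytosolic receptors. RIG-I (Ddx58) and MDA5 (Ifih1) bind RNA and signal through MAVS, and cGAS makes a cyclic dinucleotide from DNA that activates STING, the product of Tmem173. Both routes activate the kinase TBK1 and the factor IRF3, which induce type I interferon. Interferons then act through receptors, JAK kinases and STAT factors to raise many interferon-stimulated genes, among them antiviral effectors, the ubiquitin-like ISG15 system, GTPases that attack pathogen vacuoles, and the immunoproteasome. Type I interferon acts mainly through the interferon-stimulated response element, and interferon gamma through the gamma-activated site. Hepatocytes, Kupffer cells, endothelium and immune cells of the liver all express parts of this programme.

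Values are FPKM, fragment numbers scaled to transcript length and library size, as the authors deposited them, and are given per library in the order of replicates 1, 2 and 3. Percentages of a group's level, log2 differences, standard errors (SE) and p-values come from limma on log2(rescaled FPKM + 0.1), with Benjamini-Hochberg adjustment over the 11557 genes tested. A gene is called, and said to have risen or fallen, at an adjusted p under 0.05. Overlap of groups, and values said to lie below or above others, refer to deposited FPKM. Rescaling divided control libraries by 1.04 to 1.11 and treated ones by 0.944 to 0.999. Groups apart as deposited may therefore overlap on the scale tested. Of the 46 genes 45 reached 0.5 FPKM in at least 3 libraries and were tested, 40 of them reached it in all 9, and none passed through libraries of 1 group only. Tmem173 passed through control and APAP libraries alone. Mx1, a dynamin-like antiviral GTPase, was left out at 0.159 to 0.716 FPKM. Mean control levels of the 46 genes spanned 0.542 FPKM for Mx1 to 113 for Iigp1. The FPKM of all mRNAs summed to between 371958.2 and 393937.6 per library, and the sequencing depth is unknown.

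Against Control, 16 of the 45 genes tested were called in APAP livers, with 15 lower and 1 higher, where 20.9% of all genes tested were called (9.49% lower and 11.4% higher). The median log2 difference of the 45 genes was −0.41, beside −0.017 over all genes tested, and 38 of 45 were fitted below 0. In dmPGE2+APAP livers 16 of 45 were called against Control, all of them lower, where 16.4% of all genes were called (7.53% lower and 8.83% higher). The median was −0.42, beside 0.0020 over all genes, and 37 of 45 were fitted below 0. Both comparisons use the same control libraries, and 15 genes were called lower in both. Because the list was chosen with earlier results known, its shares beside all genes are descriptive and not an independent test. At an unadjusted p under 0.05 there were 22 of 45 in APAP and 19 in dmPGE2+APAP, beside 35.5% and 31.4% of all genes. On the deposited scale, all 3 treated values lay below all 3 control values for 24 of the 46 genes in APAP, the untested Mx1 among them, and for 24 in dmPGE2+APAP, where 30.6% and 31.1% of all genes tested did so. They lay above for 1 and 2 genes, beside 12.9% and 11.3%. Without rescaling, 18 members were lower and 1 higher in APAP and 18 lower in dmPGE2+APAP, where 31.6% and 28.5% of all calls were higher, beside 54.6% and 54% with it. In whole liver, fewer cells of a type and less RNA per cell cannot be told apart.

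**Figure D1:**
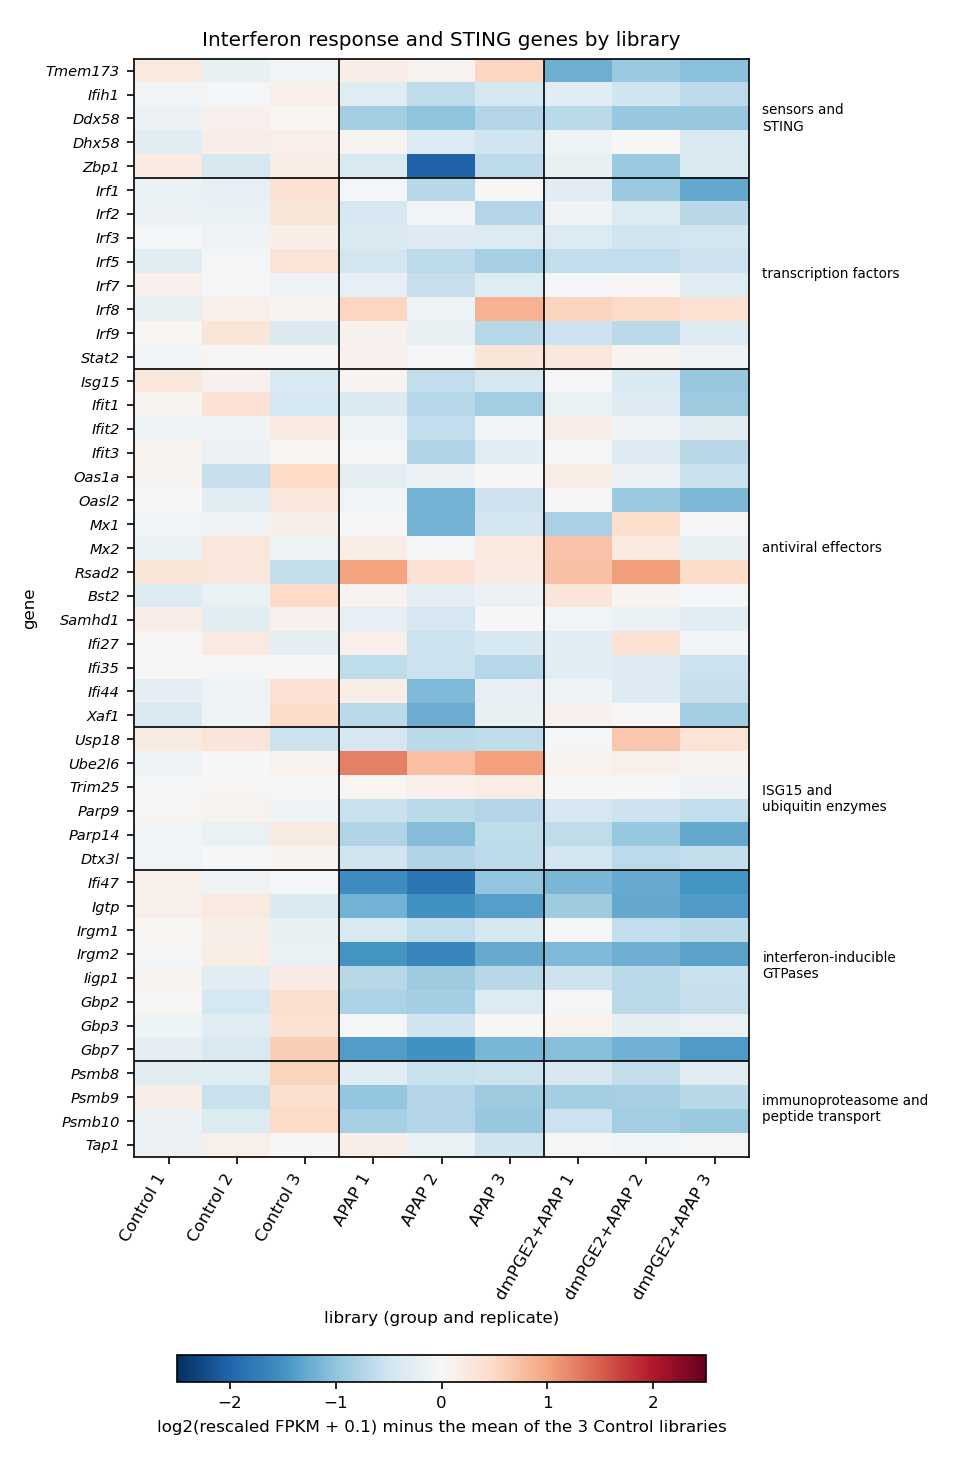
Each row is 1 of the 46 genes and each column 1 of the 9 liver libraries. The colour is log2(rescaled FPKM + 0.1) minus the mean of the 3 control libraries, blue below and red above it, and black lines separate the groups and the role classes. Blue fills both treated groups for the GTPases Ifi47, Igtp, Irgm2 and Gbp7, Ube2l6 is red in the 3 APAP libraries, and Tmem173 is blue in the 3 dmPGE2+APAP libraries.

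**Figure D2:**
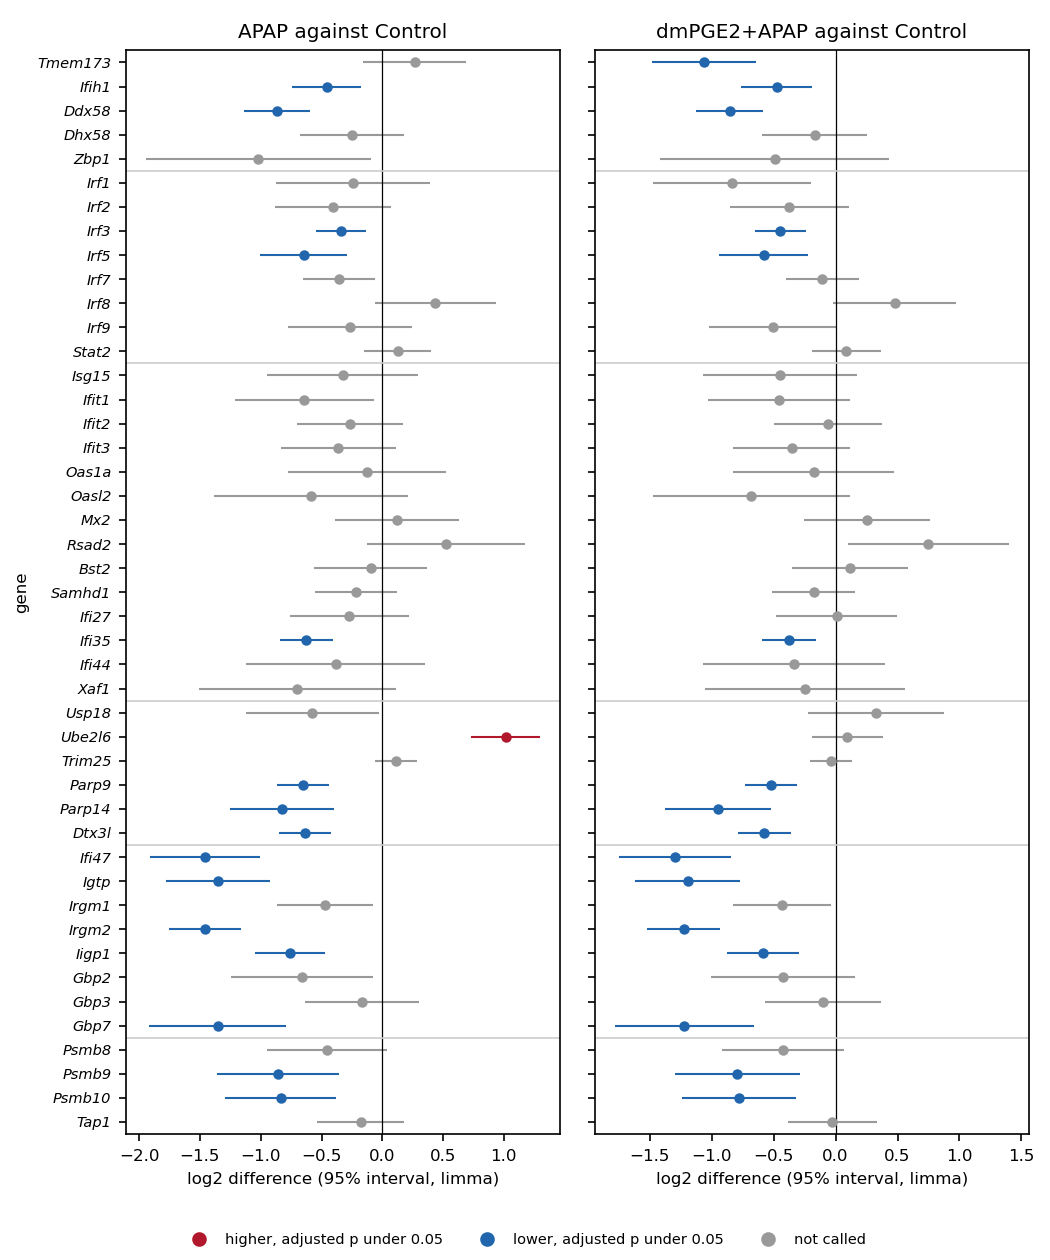
Points are limma log2 differences against Control for the 45 genes tested, in APAP (left) and dmPGE2+APAP (right), with 95% intervals. Blue marks genes called lower, red genes called higher and grey genes not called, and grey lines separate the role classes. On the left 15 points are blue and Ube2l6 is red. On the right 16 are blue, Tmem173 among them.

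Of the 5 genes for sensors and STING, 2 fell in APAP and 3 in dmPGE2+APAP livers. These are 40% and 60% of the class, where 9.49% and 7.53% of all genes tested fell. Ddx58, which encodes the RNA sensor RIG-I (GRCm38 chromosome 4, from 40203773 to 40239828), was at 7.69, 9.21 and 9.47 FPKM in the control libraries, 4.37, 3.84 and 4.902 in APAP and 4.83, 4.17 and 4.06 in dmPGE2+APAP. All 6 treated values lay below the lowest control, and the fitted level was 54.8% of the control level in APAP (log2 −0.87, SE 0.12, adjusted p = 0.00179) and 55.3% in dmPGE2+APAP (log2 −0.86, SE 0.12, adjusted p = 0.00225). Ifih1, which encodes MDA5, the sensor of long double-stranded RNA, was at 7.54, 7.68 and 9.28 FPKM in the control libraries, 5.98, 4.69 and 5.599 in APAP and 5.897, 5.37 and 4.62 in dmPGE2+APAP, again with no overlap between treated and control livers. It was at 72.8% of the control level in APAP (log2 −0.46, SE 0.13, adjusted p = 0.0321) and 71.9% in dmPGE2+APAP (log2 −0.48, SE 0.13, adjusted p = 0.0336). The Ifih1 call in APAP did not pass without control 1, 2 or 3, APAP 2 or 3, or dmPGE2+APAP 2 (adjusted p up to 0.0928). In dmPGE2+APAP it did not pass without control 1, 2 or 3, or dmPGE2+APAP 2 or 3 (up to 0.111). Zbp1, the sensor of Z-form nucleic acid that can trigger necroptosis, was at 1.64, 1.05 and 1.73 FPKM in the control libraries, 0.986, 0.245 and 0.821 in APAP and 1.11, 0.6596 and 0.9804 in dmPGE2+APAP. All APAP values lay below the controls as deposited. It was not called in APAP (log2 −1.02, SE 0.41, adjusted p = 0.109), and APAP 2 was the lowest of the 9 libraries. Dhx58, which encodes LGP2, a regulator of RIG-I and MDA5, ranged from 1.79 to 3.13 FPKM over all libraries and was not called (adjusted p = 0.375 in APAP and 0.584 in dmPGE2+APAP).

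Tmem173, which encodes STING, the adaptor that cGAS activates, was called in dmPGE2+APAP and not in APAP. It was at 1.26, 0.924 and 1.07 FPKM in the control libraries, 1.12, 1.04 and 1.51 in APAP and 0.354, 0.485 and 0.421 in dmPGE2+APAP. The APAP and control livers overlapped, and the gene was not called in APAP (log2 0.27, 95% interval −0.15 to 0.69, adjusted p = 0.341). The 3 dmPGE2+APAP values all lay below the 6 others, at 47.9% of the control level (log2 −1.06, SE 0.19, adjusted p = 0.00617). That call passed in each of the 9 fits that left out 1 library (adjusted p up to 0.0239). All 3 dmPGE2+APAP values were under the 0.5 FPKM filter, which the gene passed through its control and APAP libraries alone. Those fits kept the same filter, so they do not test it. The 13 Kupffer cell and macrophage markers summed to between 203 and 214 FPKM in dmPGE2+APAP livers, 114 to 202 in APAP and 189 to 218 in controls. The 10 markers of sinusoidal endothelium summed to between 120 and 126, 98.9 and 130, and 109 and 125. Against Control, dmPGE2+APAP livers had no Kupffer cell marker called, and 2 endothelial markers lower and 1 higher. Of all genes tested, 7.53% were lower and 8.83% higher. The part of these cells in the Tmem173 result was not tested.

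**Figure D3:**
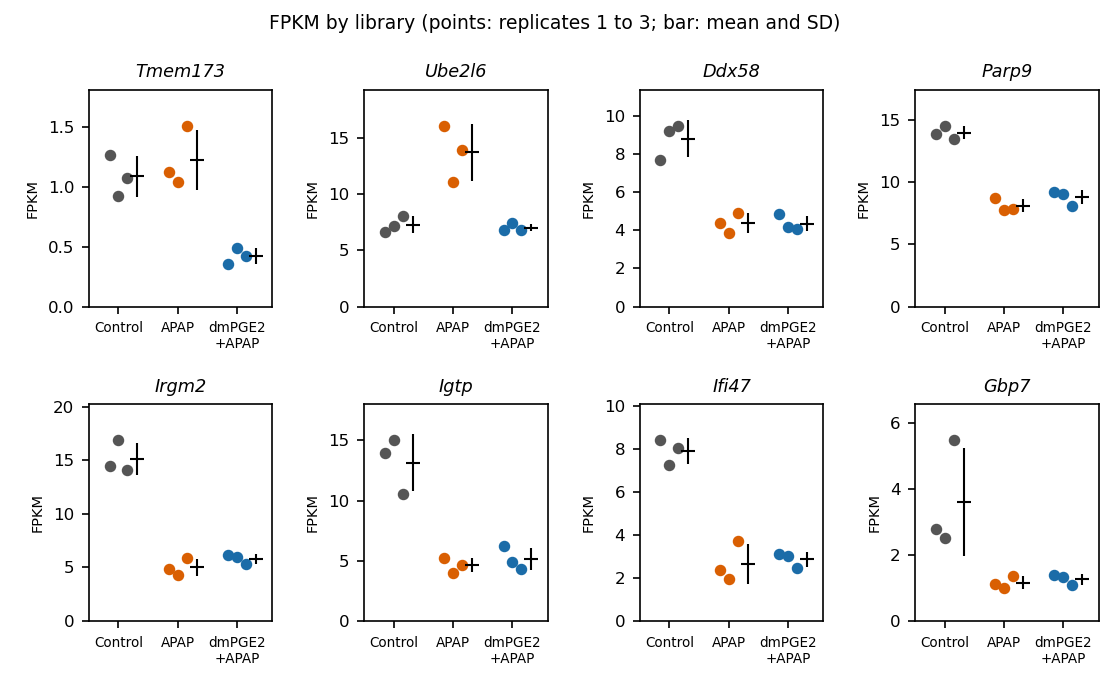
Each panel gives 1 gene's deposited FPKM, with points for replicates 1 to 3 of each group and a bar at the mean ± SD, on an axis that starts at 0. Tmem173 is low in dmPGE2+APAP alone, Ube2l6 is high in APAP alone, and Ddx58, Parp9, Irgm2, Igtp, Ifi47 and Gbp7 are lower in all 6 treated libraries than in any control.

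Of the 8 transcription factors, 2 fell in APAP and the same 2 in dmPGE2+APAP livers. That is 25% in each, where 9.49% and 7.53% of all genes tested fell. Irf3, the factor that TBK1 phosphorylates downstream of STING and MAVS, was at 14.99, 14.5 and 18.1 FPKM in the control libraries, 11.3, 11.4 and 11.6 in APAP and 11.03, 10.3 and 10.1 in dmPGE2+APAP. All treated values lay under the lowest control, and the level was 78.98% of the control level in APAP (log2 −0.34, SE 0.091, adjusted p = 0.0284) and 73.5% in dmPGE2+APAP (log2 −0.45, SE 0.091, adjusted p = 0.0121). Irf5, which acts downstream of Toll-like receptors in myeloid cells, was at 4.03, 4.72 and 6.51 FPKM in the control libraries, 3.302, 2.79 and 2.597 in APAP and 2.84, 2.995 and 3.12 in dmPGE2+APAP. It too had no overlap with controls, at 63.9% of the control level in APAP (log2 −0.65, SE 0.16, adjusted p = 0.0206) and 66.8% in dmPGE2+APAP (log2 −0.58, SE 0.16, adjusted p = 0.0372). Both calls in APAP were near the threshold, as was that of Irf5 in dmPGE2+APAP. In APAP, Irf3 did not pass without control 1 or 3 or APAP 1, 2 or 3 (adjusted p up to 0.0777), and Irf5 without APAP 2 or 3 (up to 0.0719). In dmPGE2+APAP, Irf3 did not pass without dmPGE2+APAP 2 (adjusted p = 0.0517), and Irf5 without control 2 or 3, APAP 2, or dmPGE2+APAP 1, 2 or 3 (up to 0.107). In the annotation, Irf3 overlaps Bcl2l12 and Irf5 overlaps Tnpo3, both on the opposite strand, and it is not stated whether strand was used, so these values are uncertain.

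The other 6 factors were not called against Control. Irf7, the amplifier of type I interferon, was at 6.69, 6.14 and 6.203 FPKM in the control libraries, 5.04, 3.81 and 4.7997 in APAP and 5.48, 6.003 and 4.58 in dmPGE2+APAP. All treated values lay below the controls as deposited, and it passed neither in APAP (adjusted p = 0.084) nor in dmPGE2+APAP (adjusted p = 0.615). Irf9 and Stat2 encode parts of the complex that binds the interferon-stimulated response element. Irf9 was at 8.48, 10.2 and 6.81 FPKM in the control libraries, 8.23, 6.61 and 4.74 in APAP and 5.14, 4.85 and 6.003 in dmPGE2+APAP. As deposited, its groups overlapped in APAP but not in dmPGE2+APAP (adjusted p = 0.439 and 0.163). Stat2 was at 7.28, 7.79 and 8.33 FPKM in the control libraries, 7.68, 6.797 and 9.07 in APAP and 8.44, 7.57 and 6.58 in dmPGE2+APAP, with overlap throughout (adjusted p = 0.504 and 0.68). Irf1, an interferon gamma target that drives the immunoproteasome, was at 7.35, 7.204 and 11.3 FPKM in the control libraries, 7.45, 4.67 and 7.95 in APAP and 6.11, 4.07 and 3.05 in dmPGE2+APAP. Its 3 dmPGE2+APAP values were all under the controls at 56.03% of their level, which missed the threshold (adjusted p = 0.0764, and 0.03 without dmPGE2+APAP 1). Irf2, which competes with IRF1, ranged from 6.13 to 14.3 FPKM, with no treated value above a control (adjusted p = 0.204 and 0.269), and Irf8, a factor of myeloid cells, from 1.85 to 3.88. Irf8 was fitted above Control in both treated groups, at 135% and 139% (adjusted p = 0.187 and 0.175). Without APAP 2 both comparisons passed (adjusted p = 0.017 and 0.0491). Irf8 is overlapped on the same strand by Gm20388 over 20337 bases, and Irf7 and Irf9 by short ends of Phrf1 and Rnf31, so their values are uncertain too.

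The interferon-inducible GTPases, which assemble on pathogen vacuoles and are classical targets of interferon gamma, held the 4 lowest fitted log2 differences of the list in both treated groups. All 8 were fitted below 0 in both, although Gbp3 was not without control 3. Medians were −1.06 in APAP and −0.89 in dmPGE2+APAP. In each group 5 of 8 fell, or 62.5%, where 9.49% and 7.53% of all genes tested fell. Irgm2 (GRCm38 chromosome 11, from 58199618 to 58222782) was at 14.5, 16.9 and 14.1 FPKM in the control libraries, 4.83, 4.32 and 5.87 in APAP and 6.16, 5.93 and 5.28 in dmPGE2+APAP, so the highest treated library was well under the lowest control. It was at 36.4% of the control level in APAP (log2 −1.46, SE 0.13, adjusted p = 0.000212) and 42.7% in dmPGE2+APAP (log2 −1.23, SE 0.13, adjusted p = 0.000611). Igtp, also known as Irgm3 (GRCm38 chromosome 11, from 58199556 to 58207591), was at 13.9, 15.01 and 10.5 FPKM in the control libraries, 5.23, 4.02 and 4.66 in APAP and 6.19, 4.94 and 4.33 in dmPGE2+APAP. All treated values lay below the controls, at 39.2% of the control level in APAP (log2 −1.35, SE 0.19, adjusted p = 0.00179) and 43.7% in dmPGE2+APAP (log2 −1.19, SE 0.19, adjusted p = 0.00385). Ifi47, or IRG-47 (GRCm38 chromosome 11, from 49076587 to 49096974), was at 8.39, 7.25 and 8.03 FPKM in the control libraries, 2.35, 1.94 and 3.701 in APAP and 3.12, 3.01 and 2.45 in dmPGE2+APAP. All treated values were below all controls, at 36.4% of the control level in APAP (log2 −1.46, SE 0.20, adjusted p = 0.00168) and 40.7% in dmPGE2+APAP (log2 −1.30, SE 0.20, adjusted p = 0.00354). Gbp7, a guanylate-binding protein (GRCm38 chromosome 3, from 142530342 to 142550149), was at 2.79, 2.52 and 5.47 FPKM in the control libraries, 1.11, 1.01 and 1.38 in APAP and 1.39, 1.32 and 1.08 in dmPGE2+APAP, at 39.2% of the control level in APAP (log2 −1.35, SE 0.25, adjusted p = 0.00626) and 42.9% in dmPGE2+APAP (log2 −1.22, SE 0.25, adjusted p = 0.0122). Control 3 was the highest of its controls, and without it the log2 differences were −1.05 and −0.91. These 4 genes passed in all 9 fits that left out 1 library, in both comparisons.

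Iigp1, which encodes the effector GTPase IRGA6, was the most abundant gene of the list, at 115, 90.7 and 134 FPKM in the control libraries, 62.9, 54.1 and 64.8 in APAP and 68.7, 65.5 and 67.9 in dmPGE2+APAP. The treated livers did not overlap the controls and lay at 59.03% of the control level in APAP (log2 −0.76, SE 0.13, adjusted p = 0.00419) and 66.6% in dmPGE2+APAP (log2 −0.59, SE 0.13, adjusted p = 0.0159). In dmPGE2+APAP the call was lost without control 1 or dmPGE2+APAP 2 (adjusted p up to 0.0641). Irgm1, a regulatory GTPase that guards autophagy, was at 20.5, 21.96 and 18.5 FPKM in the control libraries, 14.2, 11.8 and 14.3 in APAP and 17.7, 12.3 and 11.4 in dmPGE2+APAP. It had no overlap with controls as deposited, and it was not called. Once rescaled it was at 72.2% of the control level in APAP (log2 −0.47, SE 0.17, adjusted p = 0.0866) and 74.1% in dmPGE2+APAP (log2 −0.43, SE 0.17, adjusted p = 0.125). Without dmPGE2+APAP 1 it passed in both comparisons (adjusted p = 0.0246 and 0.0181). Gbp2, another guanylate-binding protein, was at 1.85, 1.31 and 2.57 FPKM in the control libraries, 0.932, 0.871 and 1.35 in APAP and 1.61, 1.05 and 1.07 in dmPGE2+APAP and was not called (adjusted p = 0.101 and 0.301). Gbp3 ranged from 0.854 to 1.89 FPKM and was not called either (adjusted p = 0.602 and 0.78). Loci of Igtp and Irgm2 overlap by 7974 bases in the annotation on the same strand, Ifi47 overlaps Olfr56, and the Gbp genes and Iigp1 have close paralogs, so reads may be shared among them. The 13 T, NK and B cell markers, of which 1 was tested and not called, summed to between 3.01 and 3.68 FPKM in controls, 1.13 and 1.9 in APAP, and 1.29 and 2.17 in dmPGE2+APAP. No marker was at 0 in all libraries. The 7 monocyte markers, whose sum is mostly Fn1, a gene hepatocytes also express, summed to between 334 and 424, 275 and 314, and 257 and 327, with none of the 3 tested called. The part of these cells in the lower GTPase levels was not tested.

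Promoter letters are shown for 3 GTPases that fell, 2 GTPases that were not called and 3 antiviral effectors that were not called, to set side by side the interferon motifs in their letters. RefSeq promoters of GRCm38.p6, from 250 bases before to 50 after the start, were matched for 36 of the 46 genes. They were searched on both strands for GAAA, any 2 bases and GAAA again (TTTC, any 2 bases and TTTC on the other strand), the core of the interferon-stimulated response element, and for TTCNNNGAA, the core of the gamma-activated site, which is its own reverse complement. The first was found in 16 of 36 promoters (44.4%) and in 3.99% of the 27025 genes with a promoter. The second was found in 12 of 36 (33.3%) and in 9.55% of all genes. Both occurred in Irf2, Oas1a and Bst2, which were not called, and in Igtp, Irgm2 and Gbp7, which fell. The stretches below are 5′ to 3′ on the gene's strand, with matched letters in capitals.
Igtp: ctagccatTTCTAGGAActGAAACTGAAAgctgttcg
Irgm2: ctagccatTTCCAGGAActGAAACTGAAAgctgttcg
Gbp7: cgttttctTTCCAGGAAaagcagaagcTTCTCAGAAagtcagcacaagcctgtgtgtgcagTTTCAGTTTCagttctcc
Irgm1: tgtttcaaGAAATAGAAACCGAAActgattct
Gbp2: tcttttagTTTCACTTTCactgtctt
Isg15: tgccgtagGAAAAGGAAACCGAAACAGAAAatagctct
Ifit1: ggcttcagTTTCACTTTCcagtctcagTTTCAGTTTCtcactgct
Rsad2: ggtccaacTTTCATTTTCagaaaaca
They lie at chr11:58199503-58199539, plus strand for Igtp, chr11:58214894-58214930, plus strand for Irgm2, chr3:142530222-142530300, plus strand for Gbp7 and chr11:48871427-48871458, minus strand for Irgm1. Those of the others are chr3:142620596-142620621, plus strand for Gbp2, chr4:156200867-156200904, minus strand for Isg15, chr19:34640777-34640821, plus strand for Ifit1 and chr12:26456555-26456580, minus strand for Rsad2. The stretches of Igtp and Irgm2 were identical at 36 of 37 positions and differed by T12C, counted from the 5′ end with the Igtp base first. In both, a match to the gamma-activated core stood just before a match to the response-element core. The Irgm2 stretch lies inside the Irgm2 locus of the deposited values (58199618 to 58222782). It therefore precedes a RefSeq start that is not the start of that locus. Irgm1, Gbp2, Isg15, Ifit1 and Rsad2, which were not called, held the response-element core but not the gamma-activated core, and Ifi47, which fell, held neither. Of the 12 members with a promoter that fell in APAP, 5 held the response-element core and 4 the gamma-activated core. Of the 23 with a promoter that were not called, 11 and 8 did. A match describes the letters and is not evidence of binding.

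Of the 6 genes of the ISG15 and ubiquitin enzymes, 3 fell and 1 rose in APAP livers, and 3 fell in dmPGE2+APAP. Calls make up 66.7% and 50% of the class, beside 20.9% and 16.4% of all genes tested. Parp9, Dtx3l and Parp14 fell in both. PARP9 and the ubiquitin ligase DTX3L form a complex that modifies histones and promotes interferon-stimulated genes, and PARP14 is a mono-ADP-ribosyltransferase. Parp9 was at 13.8, 14.5 and 13.5 FPKM in the control libraries, 8.698, 7.79 and 7.87 in APAP and 9.202, 9.06 and 8.13 in dmPGE2+APAP, with narrow groups that did not overlap, at 63.7% of the control level in APAP (log2 −0.65, SE 0.094, adjusted p = 0.00214) and 69.7% in dmPGE2+APAP (log2 −0.52, SE 0.094, adjusted p = 0.0071). Dtx3l was at 14.8, 15.5 and 17.4 FPKM in the control libraries, 10.2, 8.37 and 9.39 in APAP and 10.04, 9.38 and 9.41 in dmPGE2+APAP, again with no overlap, at 64.3% of the control level in APAP (log2 −0.64, SE 0.10, adjusted p = 0.00251) and 67.2% in dmPGE2+APAP (log2 −0.57, SE 0.10, adjusted p = 0.005). The Parp9 and Dtx3l loci face each other on opposite strands and overlap by 682 bases, so they may share reads. Parp14 was at 6.48, 6.13 and 8.52 FPKM in the control libraries, 3.73, 2.88 and 4.19 in APAP and 3.95, 3.34 and 2.52 in dmPGE2+APAP, with no overlap, at 56.4% of the control level in APAP (log2 −0.83, SE 0.19, adjusted p = 0.0155) and 51.7% in dmPGE2+APAP (log2 −0.95, SE 0.19, adjusted p = 0.011). Calls of these 3 genes passed in all fits that left out 1 library.

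Ube2l6, the E2 enzyme that passes ISG15 to its targets (GRCm38 chromosome 2, from 84798828 to 84810335), was the single member that rose. It was at 6.59, 7.16 and 8.04 FPKM in the control libraries, 16.04, 11.1 and 13.9 in APAP and 6.81, 7.41 and 6.82 in dmPGE2+APAP. The lowest APAP library lay above the highest of the other 6, and APAP stood at 202% of the control level (log2 1.02, SE 0.13, adjusted p = 0.00106, adjusted p up to 0.00577 with 1 library left out). The dmPGE2+APAP livers were within the control range, at 107% of its level (95% interval of the log2 difference −0.19 to 0.38, adjusted p = 0.654). Neutrophil markers summed to 7.14, 3.87 and 2.78 FPKM in controls, 43.2, 10.7 and 11.3 in APAP, and 7.45, 11.9 and 5.63 in dmPGE2+APAP. Of the 6 tested 4 were higher in APAP, where 11.4% of all genes tested were. None of the 12 was at 0 in all libraries. The part of neutrophils in the Ube2l6 result was not tested. Isg15 itself, counted with the antiviral effectors below, was at 3.18, 2.83 and 2.12 FPKM in the control libraries, 2.56, 1.52 and 1.85 in APAP and 2.34, 1.89 and 1.2004 in dmPGE2+APAP, with overlapping groups and no call (adjusted p = 0.435 and 0.301). Usp18, the protease that removes ISG15 and restrains the type I receptor, was at 5.001, 5.34 and 3.09 FPKM in the control libraries, 2.97, 2.41 and 2.598 in APAP and 3.79, 6.496 and 4.97 in dmPGE2+APAP. All APAP values lay below the controls as deposited. It was not called, at 67.2% of Control once rescaled (adjusted p = 0.124, and 0.0182 without control 3). Trim25, a ubiquitin ligase that activates RIG-I, kept to a narrow range of 18.5 to 23.3 FPKM with no call (adjusted p = 0.311 and 0.779).

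Among the antiviral effectors none rose. In each treated group 1 of the 14 tested fell (7.14%), where 9.49% and 7.53% of all genes tested fell. That gene was Ifi35, a leucine-zipper protein that partners NMI, at 9.29, 9.105 and 10.05 FPKM in the control libraries, 5.59, 5.81 and 5.401 in APAP and 6.95, 7.04 and 5.85 in dmPGE2+APAP. No treated value reached the controls, and the level was 64.9% of the control level in APAP (log2 −0.62, SE 0.10, adjusted p = 0.00276) and 77.1% in dmPGE2+APAP (log2 −0.38, SE 0.10, adjusted p = 0.0302). The dmPGE2+APAP call was lost without control 1, 2 or 3, or dmPGE2+APAP 2 or 3 (adjusted p up to 0.101). The other 13 include the genes most often used as type I interferon readouts. Ifit1, which binds RNA without a methylated cap, was at 2.87, 3.58 and 2.12 FPKM in the control libraries, 1.98, 1.49 and 1.3998 in APAP and 2.202, 2.06 and 1.32 in dmPGE2+APAP. Its APAP values were all below its controls as deposited. Once rescaled they were at 64.04% of the control level, with no call (adjusted p = 0.103, and 0.0387 without control 3). Ifit3, its binding partner, was at 3.95, 3.37 and 4.11 FPKM in the control libraries, 3.35, 1.97 and 2.92 in APAP and 3.27, 2.803 and 2.07 in dmPGE2+APAP. All treated values of Ifit3 lay below the controls as deposited, with no call (adjusted p = 0.248 and 0.286), and it may share reads with Ifit3b. Oasl2, an OAS-like protein, was at 1.25, 0.999 and 1.59 FPKM in the control libraries, 1.099, 0.443 and 0.798 in APAP and 1.11, 0.572 and 0.469 in dmPGE2+APAP, with wide groups (adjusted p = 0.27 and 0.224). Bst2, or tetherin, which holds budding viruses at the membrane, was at 34.2, 39.1 and 65.8 FPKM in the control libraries, 43.5, 33.9 and 37.6 in APAP and 48.7, 43.5 and 39.3 in dmPGE2+APAP. Control 3 was its highest library, and it was not called (adjusted p = 0.771 and 0.746).

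The remaining effectors were not called in either comparison. Ifit2 ranged from 0.736 to 1.59 FPKM over the 9 libraries, Oas1a, a 2-5A synthetase, from 0.528 to 1.397, and Mx2 from 1.47 to 2.78. Ifi44 ranged from 0.2503 to 0.999 FPKM and Xaf1, which promotes cell death, from 0.289 to 1.33. Samhd1, a dNTP hydrolase that limits reverse transcription, ranged from 3.77 to 6.39, and Ifi27 from 20.5 to 39.98. Rsad2, or viperin, was fitted above Control in both groups, with values of 2.95, 2.92 and 1.63 FPKM in the control libraries, 4.51, 2.81 and 2.65 in APAP and 3.64, 4.76 and 3.03 in dmPGE2+APAP. At 144% and 168% of the control level it did not pass (adjusted p = 0.227 and 0.111), and the dmPGE2+APAP libraries all lay above the controls. Fitted log2 differences of the 14 effectors in APAP had a median of −0.30, with 12 of 14 below 0.

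Of the 4 genes of the immunoproteasome and peptide transport, 2 fell in each treated group. That is 50% in each, where 9.49% and 7.53% of all genes tested fell. Psmb9 (LMP2) and Psmb10 (MECL-1) are catalytic subunits that replace the constitutive ones under interferon gamma and change the peptides offered on MHC class I. Psmb10 was at 6.19, 5.44 and 10.3 FPKM in the control libraries, 3.59, 3.76 and 3.35 in APAP and 4.24, 3.53 and 3.29 in dmPGE2+APAP. It was at 56.02% of the control level in APAP (log2 −0.84, SE 0.20, adjusted p = 0.0198) and 58.2% in dmPGE2+APAP (log2 −0.78, SE 0.20, adjusted p = 0.0316), and control 3 was the highest library. Psmb9 was at 2.54, 1.52 and 3.21 FPKM in the control libraries, 1.04, 1.21 and 1.13 in APAP and 1.095, 1.17 and 1.25 in dmPGE2+APAP, with no overlap, at 55.1% of the control level in APAP (log2 −0.86, SE 0.22, adjusted p = 0.0253) and 57.7% in dmPGE2+APAP (log2 −0.79, SE 0.22, adjusted p = 0.0408). Psmb10 in APAP did not pass without APAP 1 or 3 (adjusted p up to 0.0685), and in dmPGE2+APAP without control 1 or dmPGE2+APAP 2 or 3 (up to 0.0993). Psmb9 in APAP did not pass without control 1 or 3 or APAP 1 or 3 (up to 0.0766), and in dmPGE2+APAP it did not pass when any 1 library other than control 2 was left out (up to 0.116). Psmb8 (LMP7), the third subunit, was at 3.82, 3.73 and 7.25 FPKM in the control libraries, 3.53, 2.84 and 2.997 in APAP and 3.14, 2.88 and 3.44 in dmPGE2+APAP. No treated value reached the controls as deposited, and Psmb8 was not called (adjusted p = 0.168 and 0.22). Tap1, a subunit of the peptide transporter, was at 3.196, 3.89 and 3.81 FPKM in the control libraries, 3.66, 2.87 and 2.37 in APAP and 3.29, 3.23 and 3.14 in dmPGE2+APAP, with overlap and no call (adjusted p = 0.464 and 0.93). The Psmb9 and Tap1 loci overlap on opposite strands, so both are uncertain.

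Between dmPGE2+APAP and APAP livers none of the 45 genes was called with limma, where 0% of the 11557 genes tested were called. At an unadjusted p under 0.05 there were 4 of 45, with 2 lower and 2 higher, beside 9.28% of all genes (5.17% lower and 4.1% higher), and the median log2 difference was 0.065, beside 0.011. Tmem173 had the fourth smallest p of all genes tested, at 39.8% of the APAP level (log2 −1.33, SE 0.19, adjusted p = 0.149). Ube2l6 had the third, at 52.8% (log2 −0.92, SE 0.13, adjusted p = 0.149). Tmem173 passed the 0.5 FPKM filter through control and APAP libraries alone, with all 3 dmPGE2+APAP values under it. Without APAP 2, Ube2l6 passed (adjusted p = 0.0462), while Tmem173 did not pass in any fit that left out 1 library (adjusted p from 0.0559 to 0.449). For both, the 3 dmPGE2+APAP values lay below the 3 APAP values, as did those of Irf3 and Trim25, where 8.93% of all genes did so. Usp18 was at 186% of the APAP level (log2 0.90, SE 0.24, adjusted p = 0.323), with no overlap between the groups. Ifi35 was at 119% (log2 0.25, adjusted p = 0.495), and Iigp1, at 113%, also did not overlap, where 7.11% of all genes were higher without overlap. For the GTPases the 8 fitted log2 differences were above 0 with a median of 0.16, and none was called. Without APAP 2, those of Ifi47, Irgm1 and Gbp3 were below 0, and without dmPGE2+APAP 1 those of Irgm1 and Gbp3. The interval of Irgm2 ran from −0.061 to 0.52 and that of Ifi47 from −0.29 to 0.61, so the data leave room for differences up to those bounds.

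**Figure D4:**
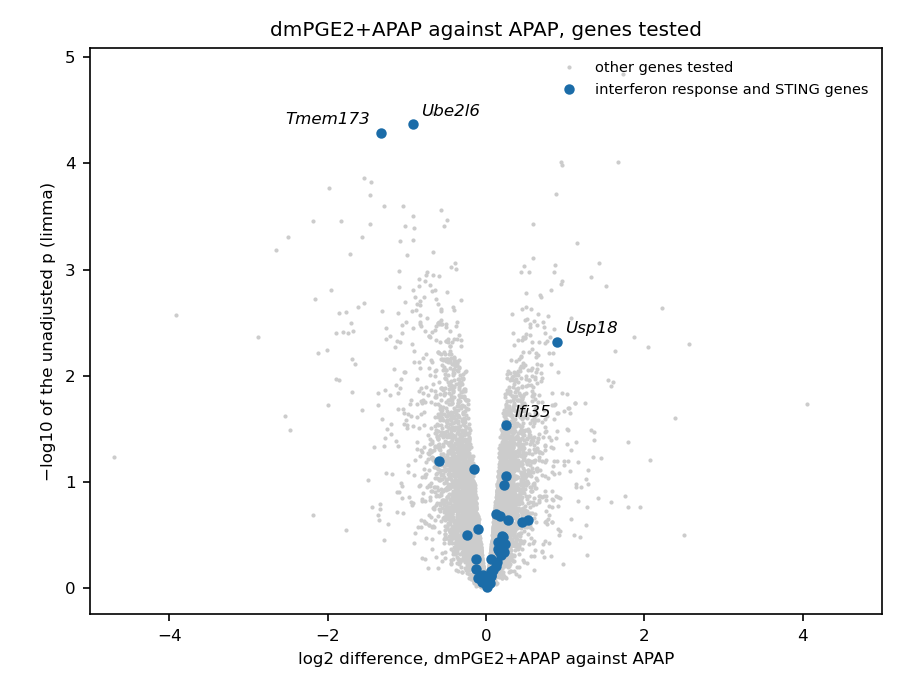
Each point is a gene tested in dmPGE2+APAP against APAP, with the log2 difference on the x axis and −log10 of the unadjusted limma p on the y axis. Grey points are the other genes and blue points the 45 members, of which the 4 at an unadjusted p under 0.05 are named. Tmem173 and Ube2l6 stand near the top on the left, apart from the other members, and no gene passed the adjustment. Tmem173 was under the 0.5 FPKM filter in all 3 dmPGE2+APAP libraries.

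The rest of the pathway was read from a list of 115 further genes, of which 114 were in the table and 89 were tested. That list too was chosen with earlier results of these data known. In APAP livers 12 of the 89 rose and 10 fell, and in dmPGE2+APAP livers 8 rose and 10 fell against Control. These are 24.7% and 20.2% of the list, beside the 20.9% and 16.4% of all genes tested that were called. Of the calls, 9 of 22 and 6 of 18 passed in all 9 fits that left out 1 library, and none was made between the treated groups. The interferon ligands gave little signal. Of 12 ligand genes 7 were listed at 0 in every library, Ifnb1 among them, 4 were above 0 in some library but never reached 0.5 FPKM, Ifng among them with at most 0.0476, and Ifnk alone was tested, with no call (adjusted p = 0.728 and 0.877).

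Of the 12 receptor and JAK-STAT genes tested, 3 rose and 3 fell in APAP, and 1 rose and 3 fell in dmPGE2+APAP, or 50% and 33.3% of the list beside 20.9% and 16.4% of all genes. Ifnar1, a chain of the type I interferon receptor, was at 13.7, 12.4 and 13.7 FPKM in the control libraries, 6.39, 7.87 and 8.59 in APAP and 7.22, 9.17 and 9.35 in dmPGE2+APAP. No treated value reached the controls, at 62.6% of the control level in APAP (log2 −0.68, SE 0.13, adjusted p = 0.00785) and 71.2% in dmPGE2+APAP (log2 −0.49, SE 0.13, adjusted p = 0.0352). In dmPGE2+APAP it did not pass without control 1, 2 or 3, or dmPGE2+APAP 1, 2 or 3 (adjusted p up to 0.106). Ifnar2, the other chain, was at 18.1, 17.4 and 16.7 FPKM in the control libraries, 19.5, 17.9 and 20.1 in APAP and 23.2, 24.99 and 19.2 in dmPGE2+APAP. It rose in dmPGE2+APAP to 141% of Control (log2 0.50, SE 0.11, adjusted p = 0.0149), but not without dmPGE2+APAP 1 or 2 (up to 0.0624), and was not called in APAP (adjusted p = 0.114). Il10rb, shared by the lambda interferon and IL-10 family receptors, was at 3.04, 2.65 and 3.06 FPKM in the control libraries, 1.69, 1.52 and 1.36 in APAP and 1.08, 1.62 and 1.39 in dmPGE2+APAP. No treated value reached the controls, at 58.4% of the control level in APAP (log2 −0.78, SE 0.15, adjusted p = 0.00828) and 52.8% in dmPGE2+APAP (log2 −0.92, SE 0.15, adjusted p = 0.0049). Ifngr1, a chain of the interferon gamma receptor, stayed between 5.45 and 6.47 FPKM with no call (adjusted p = 0.666 and 0.425). Socs3, a feedback inhibitor of JAK kinases that IL-6 induces, was at 4.79, 5.02 and 3.31 FPKM in the control libraries, 21.8, 11.3 and 16.6 in APAP and 25.9, 8.75 and 4.21 in dmPGE2+APAP. It was at 398% of Control in APAP (log2 1.99, SE 0.56, adjusted p = 0.0343), which did not pass without control 1, 2 or 3, APAP 1 or 3, or dmPGE2+APAP 2 (up to 0.105).

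**Figure D5:**
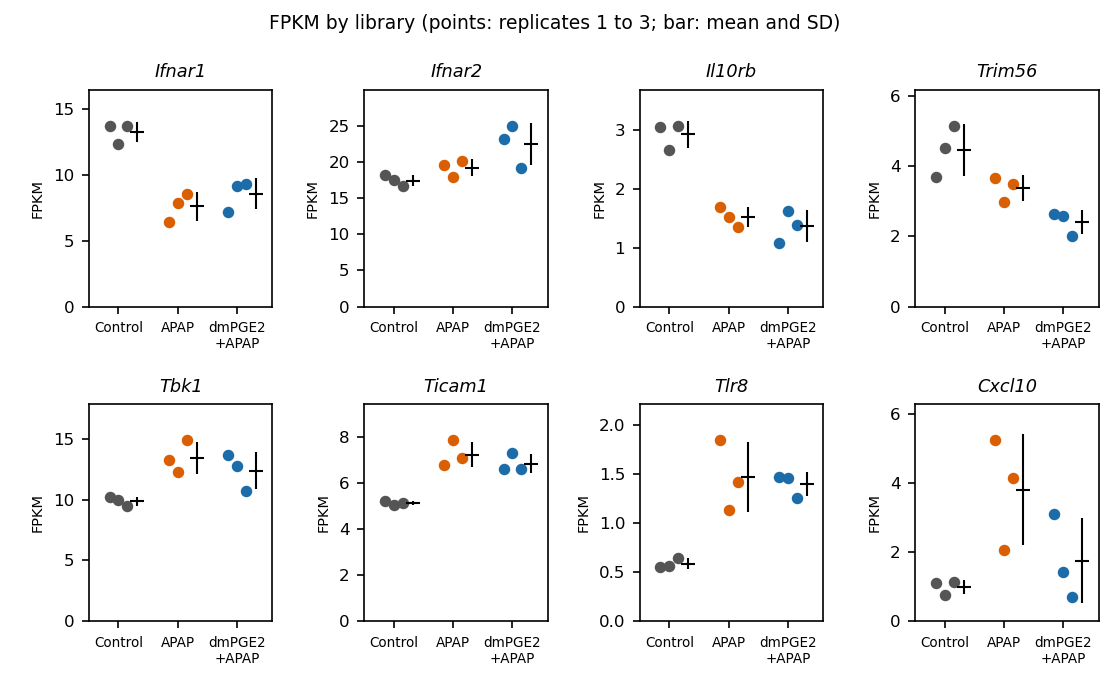
Each panel gives the deposited FPKM of 1 further pathway gene, with points for replicates 1 to 3 of each group and a bar at the mean ± SD, on an axis from 0. Ifnar1, Il10rb and Trim56 are lower in all 6 treated libraries than in any control, Tbk1, Ticam1 and Tlr8 are higher, and the Cxcl10 points of dmPGE2+APAP run from above the controls to below them.

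Of the 17 genes of the sensing relay tested, 3 rose and none fell in APAP, and 3 rose and 3 fell in dmPGE2+APAP, or 17.6% and 35.3% of the list beside the same background. Tbk1, the kinase that acts on IRF3, was at 10.2, 9.96 and 9.51 FPKM in the control libraries, 13.3, 12.3 and 14.9 in APAP and 13.7, 12.8 and 10.7 in dmPGE2+APAP. All treated values lay above the controls, at 148% of the control level in APAP (log2 0.56, SE 0.11, adjusted p = 0.00947) and 138% in dmPGE2+APAP (log2 0.46, SE 0.11, adjusted p = 0.0267), and in dmPGE2+APAP it did not pass without control 2 or 3 or dmPGE2+APAP 1 or 2 (adjusted p up to 0.0825) or on unscaled values. Ticam1, which encodes TRIF, the adaptor of TLR3 and TLR4, was at 5.21, 5.03 and 5.14 FPKM in the control libraries, 6.77, 7.86 and 7.101 in APAP and 6.61, 7.33 and 6.61 in dmPGE2+APAP. All treated values lay above the controls, at 153% of the control level in APAP (log2 0.61, SE 0.094, adjusted p = 0.00263) and 146% in dmPGE2+APAP (log2 0.55, SE 0.094, adjusted p = 0.00546). Tlr8, an endosomal RNA receptor of myeloid cells, was at 0.547, 0.561 and 0.645 FPKM in the control libraries, 1.84, 1.13 and 1.42 in APAP and 1.47, 1.46 and 1.26 in dmPGE2+APAP. Its treated values too lay above the controls, at 243% of the control level in APAP (log2 1.28, SE 0.18, adjusted p = 0.00166) and 238% in dmPGE2+APAP (log2 1.25, SE 0.18, adjusted p = 0.00217). Trim56, a ubiquitin ligase linked to STING and cGAS, fell in dmPGE2+APAP, with 3.697, 4.54 and 5.16 FPKM in the control libraries, 3.68, 2.97 and 3.499 in APAP and 2.65, 2.58 and 2.01 in dmPGE2+APAP. It was at 60.8% of Control (log2 −0.72, SE 0.15, adjusted p = 0.0121) and was not called in APAP (adjusted p = 0.238). Tlr3 and Tlr4 also fell in dmPGE2+APAP, to 60.2% and 45.7% of Control (adjusted p = 0.0337 and 0.017), and were not called in APAP (adjusted p = 0.187 and 0.15). Tlr3 did not pass without control 1, 2 or 3, or dmPGE2+APAP 2 or 3 (up to 0.107), and Tlr4 without dmPGE2+APAP 2 or 3 (up to 0.0583). Cgas, the DNA sensor upstream of STING, was below the filter at 0.0387 to 0.337 FPKM. Mavs, the adaptor of RIG-I and MDA5, ranged from 17.5 to 25.9 FPKM and was not called (adjusted p = 0.549 and 0.198).

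Of 41 further interferon-stimulated genes tested, 4 rose and 5 fell in APAP, and 1 rose and 3 fell in dmPGE2+APAP. These are 22.0% and 9.76% of the list, beside 20.9% and 16.4% of all genes. Cxcl10, a chemokine induced by interferon and by NF-kB, was at 1.09, 0.761 and 1.13 FPKM in the control libraries, 5.23, 2.05 and 4.12 in APAP and 3.102, 1.42 and 0.698 in dmPGE2+APAP. It was at 366% of Control in APAP (log2 1.87, SE 0.48, adjusted p = 0.0255), which did not pass without control 1 or 2 or APAP 1 or 3 (adjusted p up to 0.0861), and was not called in dmPGE2+APAP (adjusted p = 0.386). Ifi207, a member of the IFI200 family of DNA-binding proteins with close paralogs, was at 1.72, 1.28 and 1.61 FPKM in the control libraries, 3.905, 2.43 and 3.504 in APAP and 3.84, 3.09 and 2.53 in dmPGE2+APAP. It rose to 222% of the control level in APAP (log2 1.15, SE 0.21, adjusted p = 0.0057) and 217% in dmPGE2+APAP (log2 1.11, SE 0.21, adjusted p = 0.00787). Znfx1, an RNA-sensing helicase, fell, with 10.4, 11.3 and 10.7 FPKM in the control libraries, 7.15, 5.803 and 7.29 in APAP and 6.55, 5.499 and 5.497 in dmPGE2+APAP. It was at 68.3% of the control level in APAP (log2 −0.55, SE 0.12, adjusted p = 0.0115) and 60.1% in dmPGE2+APAP (log2 −0.73, SE 0.12, adjusted p = 0.00411). Tor3a, a torsin-family ATPase, and Slfn2, a schlafen protein, rose in APAP to 264% and 176% of Control (adjusted p = 0.0246 and 0.0289) and were not called in dmPGE2+APAP (adjusted p = 0.108 and 0.0602). Tor3a did not pass without APAP 1, 2 or 3 (up to 0.0662), and Slfn2 without control 2 or 3 or APAP 1 or 3 (up to 0.0915). Trim21, a ubiquitin ligase and antibody receptor of the cytosol, and Mov10, an RNA helicase, fell in both treated groups. In APAP they were at 69.1% and 61.7% of Control (adjusted p = 0.0331 and 0.0159), and in dmPGE2+APAP at 63.5% and 63.6% (adjusted p = 0.018 and 0.0253). In APAP, Trim21 did not pass without control 1, 2 or 3 or APAP 1 or 2 (up to 0.103), and Mov10 without APAP 3 (adjusted p = 0.0579). In dmPGE2+APAP, Trim21 did not pass without control 2 or dmPGE2+APAP 1 or 2 (up to 0.0703), and Mov10 without control 2 or dmPGE2+APAP 2 or 3 (up to 0.0842). Of 18 antigen presentation genes, 2 rose and 2 fell in APAP, and 3 rose and 1 fell in dmPGE2+APAP, or 22.2% of the list in each beside 20.9% and 16.4% of all genes. B2m, the light chain of MHC class I, was at 664, 782 and 843 FPKM in the control libraries, 770.1, 734 and 674 in APAP and 907, 825 and 807 in dmPGE2+APAP, and was not called (adjusted p = 0.775 and 0.15). Tapbpl, a peptide editor of MHC class I, was at 5.05, 4.96 and 5.58 FPKM in the control libraries, 3.01, 2.95 and 2.86 in APAP and 2.83, 3.81 and 3.49 in dmPGE2+APAP. It was at 62.6% of the control level in APAP (log2 −0.68, SE 0.11, adjusted p = 0.00354) and 71.9% in dmPGE2+APAP (log2 −0.48, SE 0.11, adjusted p = 0.0197), and in dmPGE2+APAP it did not pass without control 1 or dmPGE2+APAP 1 (adjusted p up to 0.0516). Psme2, a subunit of the proteasome activator PA28, fell in APAP to 73.9% (adjusted p = 0.0255), but not without control 1 or 2 or APAP 1 or 3 (up to 0.0811), and was not called in dmPGE2+APAP (adjusted p = 0.591). The class I genes H2-D1 and H2-T23 were at 135% and 127% of Control in APAP (adjusted p = 0.0182 and 0.0278), and at 138% and 134% in dmPGE2+APAP (adjusted p = 0.0154 and 0.0154). H2-D1 did not pass without APAP 1 or dmPGE2+APAP 1 in the respective comparison (adjusted p = 0.0603 and 0.0554). H2-T23 did not pass in APAP without control 1 or 2 or APAP 1 or 2 (up to 0.0887) or on unscaled values, nor in dmPGE2+APAP without dmPGE2+APAP 1 or 3 (up to 0.0559). H2-Q4 rose in dmPGE2+APAP to 128% (adjusted p = 0.0447), which did not pass in 7 of the 9 fits that left out 1 library (up to 0.126) or under other scalings, and was not called in APAP (adjusted p = 0.658). Class I genes are close paralogs and may share reads.

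A further 118 transcripts of 35 of the 46 genes stand in the deposited lncRNA table. By GENCODE type they comprise 75 retained introns, 32 processed transcripts, 2 targets of nonsense-mediated decay and 1 protein-coding transcript, and 8 were not found there. Of 82 tested, 3 were called in APAP against Control, all lower, where 3.61% of the 22984 transcripts tested were called (0.931% lower and 2.68% higher), and 12 had an unadjusted p under 0.05, beside 18.6% of all. Ddx58-205, a processed transcript, was at 2.65, 3.44 and 3.57 FPKM in the control libraries, 1.05, 1.09 and 1.56 in APAP and 1.75, 1.28 and 1.102 in dmPGE2+APAP (log2 −1.36, adjusted p = 0.0275 in APAP). Irf3-208, a retained intron, was at 0.861, 0.845 and 1.07 FPKM in the control libraries, 0.296, 0.153 and 0.163 in APAP and 0.251, 0.0435 and 0.263 in dmPGE2+APAP (log2 −1.80, adjusted p = 0.0403 in APAP and log2 −1.92, adjusted p = 0.0457 in dmPGE2+APAP). Parp9-205, a retained intron, was at 0.718, 0.902 and 0.8305 FPKM in the control libraries, 0.249, 0.132 and 0.477 in APAP and 0.4201, 0.325 and 0.403 in dmPGE2+APAP (log2 −1.38, adjusted p = 0.0474 in APAP). In dmPGE2+APAP 2 were called lower, Irf3-208 and Irf3-210 (log2 −1.80, adjusted p = 0.017), where 1.8% of all transcripts were called (0.531% lower and 1.27% higher), and 8 had an unadjusted p under 0.05, beside 16.2%. None was called by limma between the treated groups, where 0% of all were, and 5 had an unadjusted p under 0.05, beside 6.57%. Tmem173-206, a retained intron of the STING gene, was at 0.818, 0.449 and 0.305 FPKM in the control libraries, 0.725, 0.339 and 0.837 in APAP and 0.0969, 0.141 and 0.215 in dmPGE2+APAP. Its dmPGE2+APAP values were again below the 6 others, but it was not called against APAP (log2 −1.44, adjusted p = 0.52) or Control (log2 −1.23, adjusted p = 0.154). When 1 library was left out, 0 to 2 transcripts were called in APAP and 0 to 1 in dmPGE2+APAP, and the Irf3 gene overlaps Bcl2l12.

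The same libraries were often the extremes of their groups. Control 3 was the highest control for 30 of the 45 genes (66.7%, beside 47.4% of all genes tested), with Gbp7, Psmb10, Psmb8 and Bst2 among them. APAP 2 was the lowest APAP library for 32 (71.1%, beside 38.2%). In dmPGE2+APAP, library 1 was the highest for 32 (71.1%, beside 31%) and library 3 the lowest for 32 (71.1%, beside 34.8%). Kupffer cell and macrophage markers, by contrast, were lowest in APAP 3, at 114 FPKM against 202 and 173 in APAP 1 and 2, with 1 of 13 called in APAP (Cd68, higher). None of the 10 hepatocyte markers and none of the 3 dendritic cell markers tested was called, and albumin (Alb) lay between 21428 and 31737 FPKM in every library. As deposited, hepatocyte markers summed to between 41400 and 44500 FPKM in controls, 46400 and 53500 in APAP, and 47600 and 52400 in dmPGE2+APAP. Of the 10 stellate cell markers 3 were higher in each treated group, and of the 4 cholangiocyte markers tested 1 was. Of all genes tested, 11.4% were higher in APAP and 8.83% in dmPGE2+APAP. Dendritic cell markers summed to between 38.8 and 69.9 FPKM in controls, 36.7 and 46.6 in APAP, and 42.8 and 51.8 in dmPGE2+APAP. Most of each sum is Bst2, itself a member and among the tested markers. It made up 34.2 of 38.8 FPKM in control 1 and 65.8 of 69.9 in control 3. These sums therefore say little about dendritic cells apart from Bst2. The part of cell composition in these values was not tested.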

How the data were processed

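RNA of 9 mouse liver libraries was analysed from tables in FPKM that the authors deposited, 1 value per gene for mRNA and 1 per transcript for lncRNA. Per the submitters' processing notes, HISAT2 and GRCm38 (mm10) were used. The quantifier, annotation and filters are not given in the sources used here. Per the labels' protocols, ribosomal RNA was removed and the second strand marked with dUTP. The tables deposited as read counts scale with FPKM times genomic span and were not used, so depth is unknown. FPKM were divided by a trimmed-mean factor (30% by ratio, 5% by abundance), which shifts log2 differences by 0.13 (APAP against Control), 0.017 (dmPGE2+APAP against APAP) and 0.14 (dmPGE2+APAP against Control), so changes are relative to the bulk of genes. After adding 0.1, which makes changes of low genes too small, log2 values of all 9 libraries were fitted with limma 3.58.1 in R 4.3.3 (abundance trend, 6 residual degrees of freedom, two-sided, Benjamini-Hochberg at 0.05), tested on simulated data. Genes needed 0.5 FPKM in 3 libraries (11557 of 21870) and transcripts 0.1 (22984 of 54836). With 3 against 3 libraries, the calls rest on the spread limma pools across genes. The members and lists were chosen with earlier results of these data known. Members were named by role and by call, and other pathway genes where called, at most 4 per list and comparison by size, beside 8 key genes. Overlaps and RefSeq promoters were computed in Python. MicroRNA and circular RNA of the series were not analysed here. Values of 1 further gene of the pathway list are not reported here.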

Additional observations from a re-analysis of the deposited data

How the results depend on the processing

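The counts of members called stayed within 1.5 times of the values above under another pseudocount, filter, scaling, trend or fit of 2 groups alone, at 14 to 19 for APAP against Control, 13 to 18 for dmPGE2+APAP against Control and 0 between the treated groups. No gene named above changed sign in any fit of a comparison in which it was called. The fit of 2 groups alone ended the calls of Irf3, Irf5 and Psmb9 in APAP and of Irf5, Ifi35, Psmb9 and Psmb10 in dmPGE2+APAP, and testing without a filter on low values ended those of Irf5, Psmb9 and Psmb10 in dmPGE2+APAP. Among the other pathway genes named above, the fit of 2 groups alone ended the calls of Tor3a, Trim21, H2-D1, H2-T23 and Psme2 in APAP, and testing without a filter those of Socs3 and Trim21 in APAP and of Tlr3 and H2-Q4 in dmPGE2+APAP. With 1 library left out, 11 to 17 members were called in APAP against Control (11 without APAP 3), 9 to 16 in dmPGE2+APAP against Control (9 without dmPGE2+APAP 2) and 0 to 1 between the treated groups (Ube2l6 without APAP 2), and transcripts of members 0 to 2, 0 to 1 and 0. Members called in each such fit numbered 11 of 16 in APAP and 9 of 16 in dmPGE2+APAP. Without rescaling 3081 genes were called in APAP, 31.6% of them higher where the rescaled split is 54.6%, and 2506 in dmPGE2+APAP, 28.5% higher in place of 54%, yet all 16 members called in each comparison were still called. Among all genes, calls fell from 2417 to 1555 without APAP 3 in APAP, and from 1890 to 1233 without control 2, 1136 without dmPGE2+APAP 3 and 1029 without dmPGE2+APAP 2. They rose from 0 to 47 between the treated groups without dmPGE2+APAP 1, and 2 were called from those groups alone. The replicate numbers are not stated to pair the libraries. Deviations of same-numbered libraries correlated at −0.12 to 0.071, and those of differently numbered ones at −0.15 to 0.15. With 3 libraries per group these values cannot decide whether the libraries are paired. With a replicate block 16, 12 and 0 members were called in APAP against Control, dmPGE2+APAP against Control and between the treated groups (14, 11 and 0 of them shared), and 0 transcripts in each. The cause of these moves was not tested. Depth is unknown, so counting error cannot be given.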
